A study of Mus musculus with 4 samples.

Results

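Endothelial cells line the blood vessels, and in MC38 tumors they were taken here as every cell with more than 500 detected genes that held at least 3 unique molecular identifiers (UMIs, counted transcript molecules) of Pecam1 and Cdh5 together and 0 UMIs of Pdgfra, Ptprc, Rhox5 and C1qa. Pecam1 and Cdh5 encode adhesion molecules of endothelial junctions, while the genes required to be 0 mark fibroblasts (Pdgfra), leukocytes (Ptprc, which encodes CD45), MC38 tumor cells (Rhox5) and macrophages (C1qa). Of 31143 cells in 4 libraries, 179 met this rule (0.575%), and 167 of them came from the WT anti-PD1 library. The cells were thus chosen by the counts of these 6 genes, so their levels are given as a description only.

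The study followed MC38, a mouse colon adenocarcinoma cell line, grown under the skin of syngeneic C57BL/6 mice. Tumor cells carried either wild-type RAC1 (WT) or a homozygous A159V mutation of RAC1, a small GTPase of the cytoskeleton, introduced at the endogenous locus with CRISPR-Cas9 and studied in a single edited clone unless the study states otherwise. Mice received anti-PD1, which blocks an inhibitory receptor of T cells, or isotype control IgG, and single-cell RNA-seq libraries of the 3′ end of transcripts were made for the 4 combinations (A159V anti-PD1, A159V IgG, WT anti-PD1, WT IgG), with 1 library each. Magnetic beads split each suspension into CD45+ and CD45- cells, which were mixed again in a fixed ratio before loading. The mutation was carried by the injected tumor cells, and the endothelial cells are those of the host. The counts do not show the base change, so the genotype labels were not checked here. All tumors were collected on the same day after implantation. With 1 library per group no value has a replicate, no test between groups was possible, and all intervals below are 95% intervals that cover counting error only.

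As background, vessels sprout from existing ones when VEGF-A reaches its receptors on endothelial cells. A leading tip cell migrates, and Notch signaling from its ligand Dll4 keeps the neighboring cells in the stalk. Arteries, capillaries and veins are lined by endothelial cells with different genes, and venous endothelium is where leukocytes usually attach and leave the blood with the help of selectins and adhesion molecules. Tumor vessels are also a gate for T cells, which has made their adhesion and antigen presentation genes a subject of interest in immunotherapy.

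Nearly all cells that met the rule came from the WT anti-PD1 library. The rule found 167 of 6840 cells in WT anti-PD1 (2.44%, exact binomial interval 2.09 to 2.84), 3 of 7292 in WT IgG (0.0411%, 0.00849 to 0.12), 6 of 8879 in A159V anti-PD1 (0.0676%, 0.0248 to 0.147) and 3 of 8132 in A159V IgG (0.0369%, 0.00761 to 0.108). These intervals cover the counting of cells within a library, so with 1 library per group they do not serve to compare the groups. Among cells without a Ptprc UMI, which leaves out most leukocytes, the shares were 6.67% in WT anti-PD1, 0.119% in WT IgG, 0.214% in A159V anti-PD1 and 0.0802% in A159V IgG. The rule acted unequally, since a Rhox5 UMI excludes a cell and was found in 1.26% of WT anti-PD1 cells. It was found in 35.5% of WT IgG, 43.7% of A159V IgG and 32.5% of A159V anti-PD1 cells. Without the conditions on Rhox5 and C1qa the shares of all cells were 2.62% in WT anti-PD1, 0.411% in WT IgG, 0.191% in A159V anti-PD1 and 0.184% in A159V IgG.

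**Figure D1:**
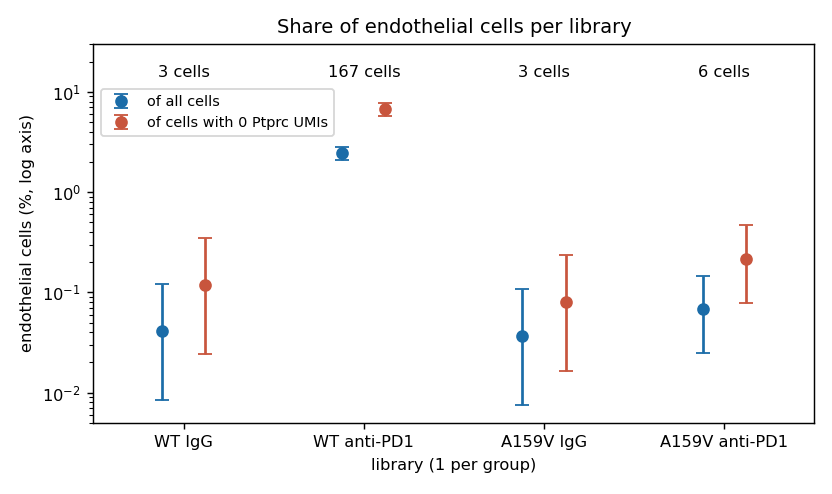
Share of endothelial cells in each of the 4 libraries (vertical log axis, percent), of all cells in blue and of cells without a Ptprc UMI in red; bars are exact 95% binomial intervals and the number of cells stands above. WT anti-PD1, at 2.44% and 6.67%, lies above the other libraries, whose highest values are 0.0676% and 0.214%.

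The WT anti-PD1 library stood apart in other respects, which moved together with the endothelial share. Cells with at least 3 UMIs of the tumor gene Rhox5 made up 0.804% of WT anti-PD1 but 29.4% of WT IgG, 37.6% of A159V IgG and 25.4% of A159V anti-PD1. Fibroblast class cells numbered 882 in WT anti-PD1 and 76, 78 and 117 in WT IgG, A159V IgG and A159V anti-PD1, and mural class cells, the pericytes and smooth muscle cells that wrap vessels, numbered 39 against 1, 0 and 2. Treatment, genotype and the low share of tumor cells in this library cannot be told apart with 1 library per group. Each pair of libraries shared 12 to 18 cell barcodes, and none of those was an endothelial cell.

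The 12 cells of the other libraries were not all endothelial by their other genes. The 8 with a Cdh5 UMI held 10 to 16 of the other 17 endothelial identity genes, and all 8 had UMIs of Kdr or Flt1, of Egfl7, of Plvap, of Fabp4 and of the basement membrane collagen Col4a1. The 4 without Cdh5 held 0 to 2 of those genes. Among these 4, WT IgG cell 2 had 23 UMIs of the fibroblast collagen Col1a1. The A159V anti-PD1 cells 2, 5 and 6 had 4, 5 and 15 UMIs of the myeloid gene Fcer1g and 22, 3 and 4 UMIs of the platelet and macrophage chemokine gene Pf4. Of the cells that met the rule, 142 in WT anti-PD1, 2 in WT IgG, 3 in A159V anti-PD1 and 3 in A159V IgG had a Cdh5 UMI. Of these, 137, 2, 3 and 3 also had a UMI of Kdr or Flt1. Cdh5 is a gene of the rule, so its counts are a description only.

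Genes of sprouting were uneven among these few cells. A159V IgG cell 3 alone held 32 UMIs of Esm1, 25 of the peptide hormone gene Apln and 29 of Angpt2 among its 8958 UMIs, whereas WT IgG cell 3 held 4, 2 and 6 and the other 6 Cdh5-positive cells held 0 of Esm1 and of Apln. The fatty acid carrier Fabp4 ranged from 2 to 293 UMIs over the 8 cells, with 293 in WT IgG cell 1 and 183 and 143 in A159V anti-PD1 cells 4 and 3. At 3 to 6 cells a library these counts describe cells and were not compared between groups.

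The label held for most but not all of the 167 WT anti-PD1 cells. They carried 1645948 UMIs in all, with a median of 6535 per cell (quartiles 3518.5 and 13292.5), 2899 genes and 3.06% mitochondrial UMIs, against a median of 16157.5 UMIs in the fibroblast class, 5879 in the mural, 6367 in the macrophage, 3788 in the T and 1794 in the neutrophil class of the same library. Of the 4 genes given as markers of the label, Pecam1 was found in 166 cells, Cdh5 in 142, the VEGF-A receptor gene Kdr in 122 and the VEGF receptor gene Flt1 in 132, and 143 cells had Kdr or Flt1. Only the first pair was used by the rule. The members just inside the threshold looked different from the rest, as the 15 cells with exactly 3 UMIs of Pecam1 and Cdh5 had Cdh5 in 3, Kdr or Flt1 in 5 and Col1a1 at 8515 CPM (UMIs per 1000000 of their summed UMIs), and the 9 with exactly 4 had them in 3 and 1 and at 5355 CPM. The 143 cells with 5 or more had Cdh5 in 136, Kdr or Flt1 in 137 and Col1a1 at 263 CPM. Just outside, the 31 cells with exactly 2 UMIs had Cdh5 in 6, Kdr or Flt1 in 5 and Col1a1 at 7820 CPM. Because the cells were split by the genes of the rule, their Cdh5 counts follow in part from the split. Median depths were 1747, 1921 and 2696 UMIs for cells with 2, 3 and 4, and 7724 for 5 or more. The counts of cells with Cdh5, Kdr or Flt1 are not matched for depth. A group of 25 cells, described with the subclusters below, holds most of this fibroblast and myeloid signal, and values that depend on it are given with and without it.

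Markers of other cells were low beside this exception. The rule had removed cells with a UMI of Ptprc, C1qa, Pdgfra or Rhox5. Low levels of leukocyte, fibroblast and tumor markers therefore follow in part from the rule. The summed level of the 6 fibroblast markers outside the gates was 1299.6 CPM in endothelial cells, 570 CPM without those 25 cells and 42120.1 CPM in the fibroblast class. The 7 pericyte markers outside the gates summed to 164 CPM against 6451 CPM in the mural class, with 1 of 7 above 50 CPM. Macrophage markers summed to 244 CPM (177 CPM without the 25 cells) against 13274 CPM in the macrophage class, neutrophil markers to 40.7 CPM (5.13 CPM) against 9823 CPM in neutrophils, and T and NK markers to 10.3 CPM against 2992 CPM in T cells. For 5 of 6 tumor markers, 5 of 6 B cell markers and all 6 adipocyte and muscle markers there was no UMI in the 167 cells. The part of other cells' RNA in the values below was not tested beyond this.

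A set of 20 genes stood out most in endothelial cells against the 5 other classes of WT anti-PD1. Each level is the UMI total over all cells of a class, in CPM, and ratios are log2 ratios of CPM with 1 CPM added to each side. The 20 genes with the largest ratio over the highest other class, among genes of at least 100 CPM, were Ptprb, Adgrl4, Mmrn2, Egfl7, Cldn5, Cyyr1, Emcn, Gpihbp1, Podxl, Tspan7, Mecom, Aplnr, Tie1, Myct1, Sox17, Palmd, Grrp1, Arhgef15, Ushbp1 and Dipk2b. Their ratios over the highest other class lay between 6.70 and 9.13, and 6 of them are in the list of 19 identity genes.

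Ptprb, the endothelial receptor phosphatase that acts on the angiopoietin receptor, stood at 1152 CPM (95% interval 1101 to 1205) in endothelial cells and at no more than 1.06 CPM in any other class. The orphan adhesion receptor gene Adgrl4 reached 885 CPM (95% interval 840.3 to 932) against at most 0.916 CPM. Mecom, which encodes a zinc finger transcription factor, was at 1749.8 CPM (95% interval 1686 to 1815) and had its next highest level in fibroblasts, at 9.53 CPM. Cldn5 encodes the claudin of endothelial tight junctions. It had 251 CPM (95% interval 227 to 276) in endothelial cells and 0 UMIs in all 5 other classes, so that it was at least 1289-fold higher than in fibroblasts, the class where a count of 0 allows the least. A count of 0 is taken to allow 3 UMIs in the class, which is 0.195 CPM in fibroblasts, 0.692 in macrophages, 0.636 in T cells, 2.75 in neutrophils and 9.73 in mural cells.

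The same genes were found in many of the cells, as seen after thinning each cell to 1500 UMIs so that depth did not differ between classes (158 endothelial, 968 T and 877 fibroblast class cells were deep enough, leaving out 9, 35 and 5). Mecom was found in 77.2% (95% interval 69.9 to 83.5) of thinned endothelial cells, Ptprb in 61.4% (95% interval 53.3 to 69.02) and Egfl7, a secreted factor of endothelial cells, in 60.1% (95% interval 52.04 to 67.8). T cells had them in 0.207%, 0.103% and 0%. The 20 genes were picked for low levels in all other classes, T cells included. Their low shares in T cells follow from that choice and do not measure free RNA. Over the 20 genes the share ran from 14.6% to 77.2% in endothelial cells and from 0% to 0.207% in T cells. A share of 0 of 968 T cells allows up to 0.31%. Without thinning the genes were found in 86 to 140 of the 167 cells. All 17 identity genes outside the rule also had a share whose interval lay above that of T cells, with 12.03% to 62.03% of endothelial cells and at most 1.65% of T cells.

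**Figure D2:**
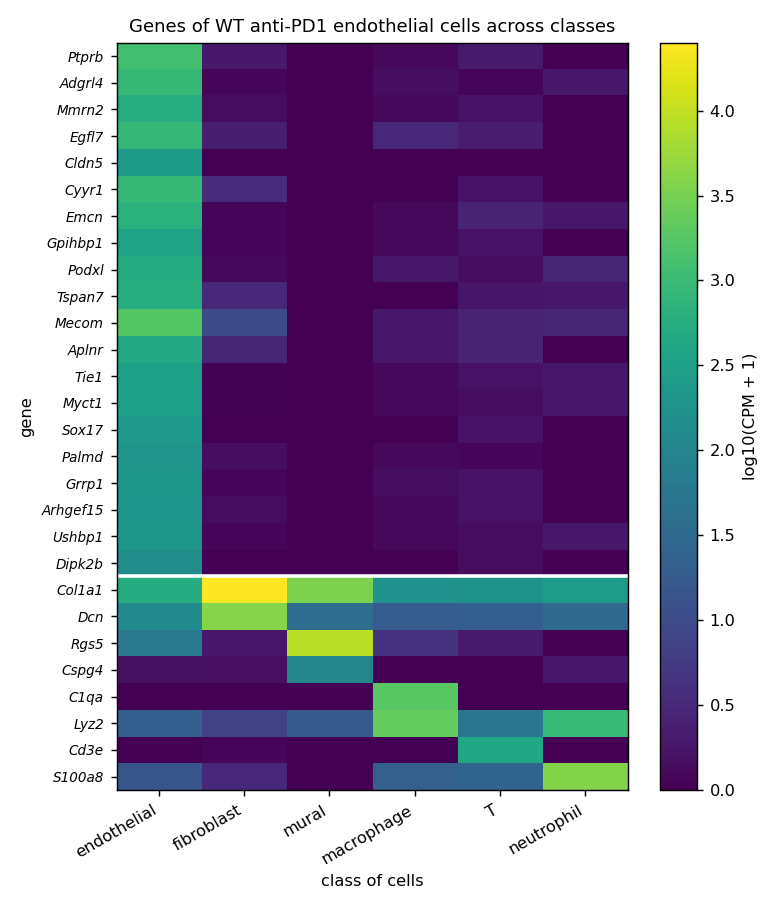
Level of the 20 genes that most set endothelial cells apart (above the white line) and of 8 markers of other cells (below it) in 6 cell classes of WT anti-PD1; color is log10(CPM + 1) of the UMIs summed over each class. The 20 genes are at 147 CPM or more in endothelial cells and near 0 elsewhere, and Col1a1, Dcn and Rgs5 are the markers of other classes most visible in endothelial cells.

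To show sequence at starts of some of these genes, the 300-base promoters given by RefSeq for GRCm38.p6 (250 bases before and 50 after each start) were searched for 4 forms of the binding motif of ETS factors, the family that includes Erg and Fli1. A promoter was given for 14 of 24 genes (the 20 above and the 4 markers of the label), with 17 promoters in all. GGAAGT, read on either strand, was in 8 of 17 (47.1%) and in 23.8% of all 32851 promoters, CAGGAAG was in 6 (35.3%, against 13.3%), ACAGGAA in 6 (35.3%, against 8.67%), and CCGGAAG in 0 (against 8.86%). CAGGAAG and ACAGGAA share letters and can mark the same place. These windows of 30 bases hold GGAAGT or its reverse complement in capitals in promoters of the receptor genes Kdr, Flt1 and Tie1 and of Egfl7, and each is written along the strand of its gene.
Kdr, chr5:75978655-75978684, minus strand, motif 217 bases before the RefSeq start: tggctacattttACTTCCaccagaaaccga
Flt1, chr5:147726046-147726075, minus strand, motif 52 bases before the RefSeq start: ggtgccggggtaGGAAGTgggctggggaaa
Tie1, chr4:118489914-118489943, minus strand, motif 82 bases before the RefSeq start: ccccttccagagACTTCCaggccacaccca
Egfl7, chr2:26583774-26583803, plus strand, motif 79 bases before the RefSeq start: agaacacacacaGGAAGTccggcgggaagg
A match describes the letters of the window and is not evidence of binding. The genes themselves lie at chr5:75932827-75978458 (Kdr), chr5:147561604-147726011 (Flt1), chr4:118471191-118490061 (Tie1), chr2:26580014-26593120 (Egfl7), chr8:104101625-104144511 (Cdh5) and chr11:106654217-106750628 (Pecam1) in the GRCm38 gene annotation (GENCODE). The Kdr and Flt1 windows lie before these spans. The Tie1 and Egfl7 windows lie inside them, since the RefSeq starts used here are downstream of the first GENCODE start, and the Egfl7 window belongs to 1 of several RefSeq starts.

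Gene lists were then compared with the fibroblast class, the largest other non-leukocyte class of the library. A gene is called higher or lower here when the summed levels differed at least 4-fold and it reached 50 CPM in at least 1 of the 2 classes. Of 4862 genes compared, 611 were higher (12.6%) and 512 lower (10.5%) in endothelial cells, and the median log2 ratio over all of them was 0.37. Without the 25 cells of the fourth subcluster the counts were 636 and 541 of 4897. Setting the median of shared genes equal instead (median of ratios scaling) moved the median of all genes to -0.06. This scaling gave 509 genes higher and 621 lower, so which direction held more genes depended on the scaling. A list median between 0 and 0.37 is therefore not read as a direction.

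Of 17 identity genes compared, 16 were higher and 0 lower, with a median ratio of 7.30. Genes with 0 UMIs in fibroblasts, set to the bound that 3 UMIs give, left the median of this and of every other list unchanged. Tie1, the partner of the angiopoietin receptor, was at 310.5 CPM (95% interval 284 to 339) against 0.0649 CPM in fibroblasts, and the sialomucin gene Emcn at 652 CPM (95% interval 613 to 692) against 0.13 CPM. Plvap, which builds the diaphragms of fenestrae and caveolae, was at 1043 CPM (95% interval 994 to 1093) against 2.27 CPM. The exception was Cd34, at 619.7 CPM in endothelial cells and 746 CPM in fibroblasts. Cd34 thus did not separate vessel cells from fibroblasts, although it was under 10 CPM in mural cells and the 3 leukocyte classes.

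Transcription factors of the endothelial lineage were mostly higher, with 17 of 18 compared higher, 0 lower and a median of 5.33. The ETS factor gene Erg was at 307 CPM (95% interval 281 to 335) against 0.649 CPM in fibroblasts, and its relative Fli1 at 775 against 10.9 CPM. Fli1 is also a leukocyte gene and had 625 CPM in T cells and 229 CPM in macrophages. The 3 SOXF genes, which act in arterial and lymphatic fate, were Sox17 at 235, Sox18 at 644 and Sox7 at 115 CPM, each under 1 CPM in fibroblasts. Klf4, a factor induced by blood flow, was the gene that did not differ 4-fold, at 234 against 256 CPM.

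**Figure D3:**
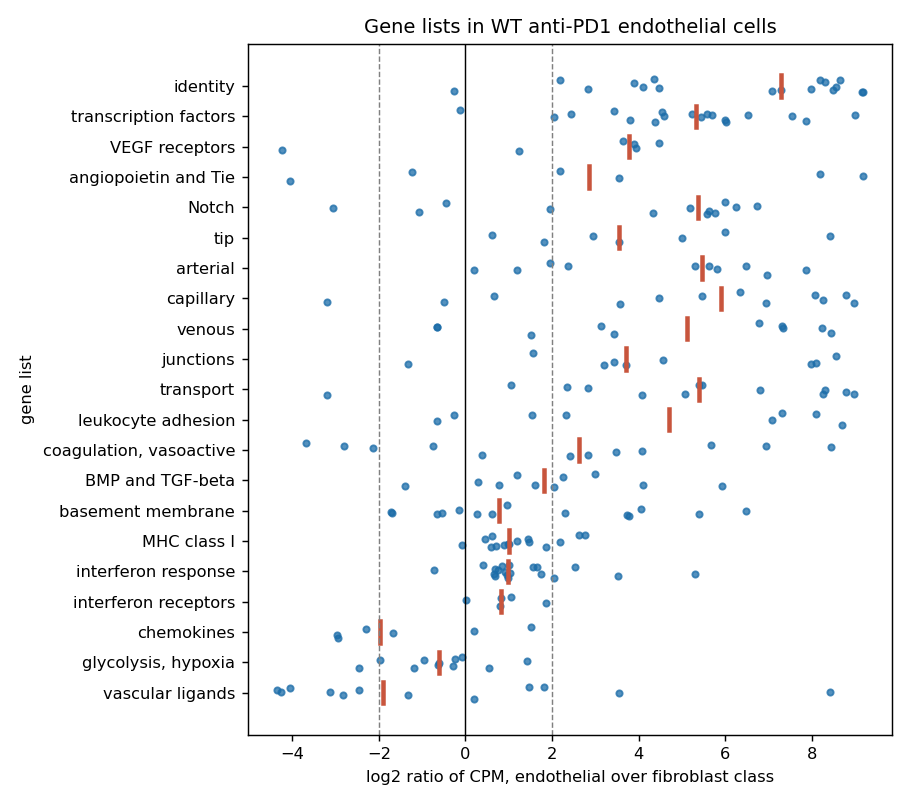
Log2 ratio of CPM, endothelial over fibroblast class of WT anti-PD1, for each gene of 21 lists that reached 50 CPM in 1 of the 2 classes (points); red bars are list medians and dashed lines mark 4-fold. Identity genes and transcription factors lie mostly above 4-fold, MHC class I and interferon genes near 1, and chemokines and vascular ligands mostly below 0.

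Receptors of angiogenic factors followed the same pattern, with 4 of 6 genes of the VEGF receptor list higher, 1 lower and a median of 3.77. Kdr was at 531 CPM (95% interval 496 to 567) in endothelial cells, 22.8 CPM in fibroblasts and 0 in mural cells. Flt1, which binds VEGF-A tightly and can act as a decoy, was at 862 CPM (95% interval 818 to 908) but also at 444 CPM in mural cells, so that its log2 ratio over mural cells was 0.95 (95% interval 0.70 to 1.21). The co-receptor gene Nrp1 was at 528 CPM in endothelial and 597 CPM in mural cells. Flt4, the receptor of lymphatic growth factors, was at 20.7 CPM. The member that was lower was Neo1, a receptor of guidance cues, at 6.68 against 145 CPM.

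The gene of their main ligand was higher in other classes. Vegfa was at 13.4 CPM (95% interval 8.38 to 20.2) in endothelial cells, 346 CPM in macrophages, 280.4 CPM in neutrophils and 78.4 CPM in fibroblasts, and it was at 1.28 CPM in endothelial cells when the 25 cells of the fourth subcluster were left out. Angpt1, the activating ligand of the receptor encoded by Tek, was at 263 CPM in mural cells, 66.6 CPM in fibroblasts and 3.04 CPM in endothelial cells. Tek itself was at 294 CPM (95% interval 268 to 321) in endothelial cells and at 63.6 CPM in fibroblasts. Angpt2, the ligand that loosens vessels, was at 74.7 CPM in endothelial and 221 CPM in mural cells. Of the 17 vascular ligands, 12 were compared with fibroblasts, with 2 higher, 6 lower and a median of -1.90. In the angiopoietin and Tie list 4 of 6 were higher and 1 lower (median 2.87).

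Pdgfb is the factor by which endothelial cells recruit pericytes. It was at 362 CPM (95% interval 334 to 392) in endothelial cells and at 12.97 CPM in mural cells, whereas its receptor gene Pdgfrb was at 915 CPM in mural cells, 119 CPM in fibroblasts and 26.1 CPM in endothelial cells. The endothelin gene Edn1 and the gene of its contractile receptor, Ednra, showed the same division. Edn1 was at 133 CPM in endothelial cells against 3.24 CPM in mural cells, and Ednra at 7.90 against 516 CPM. Of the 12 genes of the mural signaling list, 5 of 9 compared were higher than in fibroblasts and 3 lower, and against mural cells 4 of 10 were higher and 4 lower, where 9.86% of 5008 genes were higher and 9.62% lower over all.

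**Figure D4:**
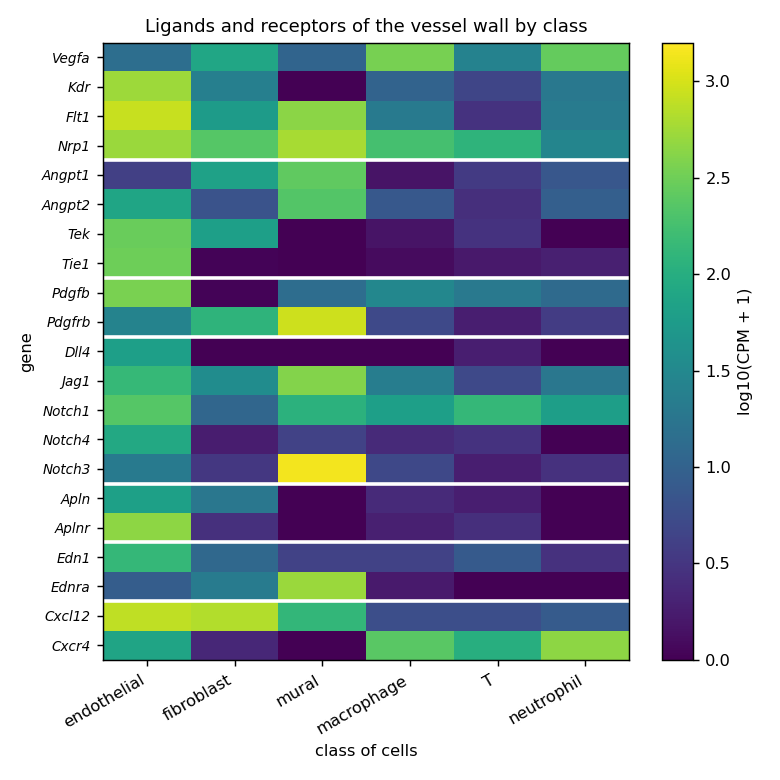
Level of ligand and receptor genes of the vessel wall in 6 cell classes of WT anti-PD1, as log10(CPM + 1) of summed UMIs; white lines separate ligand and receptor groups. Kdr, Tie1, Pdgfb, Dll4 and Aplnr are highest in endothelial cells, Pdgfrb, Notch3, Ednra and Angpt1 in mural cells, and Vegfa in macrophages and neutrophils.

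Notch genes were among those higher in endothelial cells, with 8 of 12 compared higher, 1 lower and a median of 5.38. The ligand gene Dll4 had 63.2 CPM (95% interval 51.6 to 76.6) and 0 UMIs in fibroblasts, mural cells, macrophages and neutrophils. Jag2 was at 112 against 0.0649 CPM in fibroblasts, and Jag1, a ligand that signals to mural cells, at 138 against 34.9 CPM and at 405 CPM in mural cells. The receptor genes were divided between the classes. Notch4 was at 83.8 CPM in endothelial and 3.24 CPM in mural cells, Notch1 at 228 and 114 CPM, and Notch3, which served to choose the mural class, at 20.05 CPM in endothelial cells. The member that was lower than in fibroblasts was Notch2, at 10.9 against 97.9 CPM. Of the target genes, Hey1 was at 67.4 CPM and Nrarp at 75.3 CPM, with 0.389 and 0 CPM in fibroblasts. The target gene Hes1 did not differ 4-fold, at 101 against 139 CPM in fibroblasts, a log2 ratio of -0.45 (95% interval -0.67 to -0.22). Nrarp and Hes1 were at 104 and 259 CPM in mural cells.

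Transport of fatty acids and water marked these cells. In the transport list 11 of 13 genes compared were higher than in fibroblasts, 1 was lower and the median was 5.39. Fabp4 was at 9317 CPM (95% interval 9169.9 to 9465) in endothelial cells, 17.5 CPM in fibroblasts, 2241 CPM in mural cells and 234 CPM in macrophages. The fatty acid receptor gene Cd36 was at 1715 CPM (95% interval 1652 to 1779.6) against 2.85 CPM in fibroblasts, yet macrophages held 1019 CPM, so the ratio over macrophages was 0.75. Gpihbp1, which carries lipoprotein lipase across capillary endothelium, was at 343 CPM (95% interval 316 to 373) and at most 0.636 CPM elsewhere. The lipase gene Lpl was the member that was lower, at 38.3 CPM against 359.5 in fibroblasts, 454 in mural cells and 1274 in macrophages. Carriers known from the blood-brain barrier differed among themselves. Abcb1a, which encodes the efflux pump P-glycoprotein, was at 161 CPM (95% interval 142 to 182) against 0.454 CPM in fibroblasts and 137 CPM in T cells. The glucose carrier gene Slc2a1 was at 13.4 CPM, and Mfsd2a had no UMI, which allows up to 1.82 CPM.

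Junction genes were higher in 7 of 9 compared with 0 lower (median 3.72). Esam was at 673 against 0.778 CPM in fibroblasts, F11r at 399 against 0.454 CPM and the scaffold gene Tjp1 at 482 against 43.6 CPM. The connexin gene Gja1 was not among them, at 118 against 295 CPM. Ocln, a tight junction gene of barrier endothelium, was at 0.608 CPM, under the 1.82 CPM that a count of 0 allows.

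The basement membrane was shared with other stroma. Of 14 genes compared with fibroblasts 6 were higher and 0 lower, with a median of 0.78, and of 14 compared with mural cells 1 was higher and 0 lower (median -0.18). Type IV collagen, the sheet under vessels, was at 2232 CPM (95% interval 2161 to 2306) for Col4a1, 2721 CPM in mural cells and 166 CPM in fibroblasts. Lama5, the laminin chain of mature endothelium, was at 106 against 0.195 CPM in fibroblasts and 58.4 CPM in mural cells. Sparc was at 2688 CPM in endothelial and 8689 CPM in fibroblast class cells. Against macrophages all 14 were higher, where 15.7% of 5014 genes were.

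Genes that meet blood and leukocytes were also higher. In the coagulation and vasoactive list, 7 of 12 compared were higher than in fibroblasts and 3 lower. Vwf, the factor that binds platelets, was at 414 CPM (95% interval 383 to 446) against 0.195 CPM, and the nitric oxide synthase gene Nos3 at 122 CPM (95% interval 105 to 139.6) against 0 UMIs. Those lower included Plat at 41.3 against 297 CPM and Ptgis at 10.3 against 144 CPM, and all UMIs of Ptgis lay in the fourth subcluster. For leukocyte adhesion 5 of 8 were higher and 0 lower (median 4.71, or 7.17 without the 25 cells, whose Alcam then no longer counts). Icam2 was at 153 against 0.13 CPM, Selp at 178 against 0.13 CPM, and Vcam1, at 80.8 against 129 CPM, was no higher than in fibroblasts.

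MHC class I and interferon genes showed moderate differences. Among 15 MHC class I genes compared with fibroblasts, 3 were higher (H2-Q6, H2-Q7 and Nlrc5), 0 lower and the median was 1.01, and against macrophages the median was -0.44 with 1 higher and 0 lower, where 15.7% and 12.6% of all genes were. H2-K1 was at 2702 CPM in endothelial cells, 1343 CPM in fibroblasts and 3534 CPM in macrophages. Nlrc5, the regulator of class I genes, was at 72.9 against 10.96 CPM in fibroblasts. Of 19 interferon response genes, 4 were higher than in fibroblasts (Rsad2, Gbp4, Gbp5 and Iigp1), 0 lower and the median was 0.98. Over all genes 12.6% were higher and 10.5% lower than in fibroblasts. Against macrophages 0 of 24 were higher and 2 lower (median -0.54), and against neutrophils 1 of 24 was higher and 6 lower (median -1.40). Over all genes 19.3% were higher and 16.1% lower than in neutrophils. The medians against mural and T cells were 0.66 and 0.50. Over all genes compared the medians were 0.27 against macrophages, 0.67 against neutrophils, 0.06 against mural cells and -0.09 against T cells. Gbp4 was at 238 CPM (95% interval 215 to 262) against 5.06 CPM in fibroblasts and 99.4 CPM in macrophages. The interferon receptor list had 0 of 5 genes called in either direction.

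MHC class II and costimulatory genes were low beside macrophages. Their summed level, Tnfsf10 included, was 344 CPM in endothelial cells (275 CPM without the 25 cells) and 11559 CPM in macrophages. In fibroblasts it was 85.2 CPM and in mural cells 201 CPM, both below the endothelial level. Of 15, 2 reached 50 CPM in endothelial cells, and compared with macrophages 10 of 11 were lower, where 12.6% of 5014 genes were lower. H2-Aa was at 16.4 against 2327 CPM in macrophages, Cd74 at 55.3 (24.4 without the 25 cells) against 4426 CPM and the PD1 ligand gene Cd274 at 29.2 CPM (95% interval 21.5 to 38.7) against 455 CPM. The exception was Tnfsf10, the death ligand TRAIL, at 168 CPM (95% interval 148 to 189) in endothelial cells, 76.7 CPM in T cells and 3.46 CPM in macrophages. Cd80 and Cd86 had 8.51 and 7.90 CPM over all 167 cells and 0 and 1.28 CPM without the 25.

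Chemokines were few apart from Cxcl12. This ligand of Cxcr4 was at 783 CPM in endothelial cells and 685 CPM in fibroblasts, a log2 ratio of 0.19 that turned to -0.15 under median of ratios scaling. The T cell chemokine genes Cxcl9 and Cxcl10 were at 13.97 and 27.3 CPM, against 107 and 595 CPM in macrophages. Ccl2 was at 46.2 CPM, or 10.3 CPM without the 25 cells, against 229.7 CPM in fibroblasts. Of the 6 genes of the list compared with fibroblasts, 0 were higher and 3 lower.

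Genes of the BMP and TGF-beta pathway were higher in 5 of 10 compared and lower in 0. The co-receptor gene Eng was at 441 CPM (95% interval 409.6 to 474) against 24.8 CPM in fibroblasts, and the BMP target Id1 at 186 CPM (95% interval 166 to 208) against 2.08 CPM. Tgfbr2 was at 432 against 1148 CPM and did not reach 4-fold. Glycolysis and hypoxia genes had a median of -0.62 against fibroblasts, with 0 of 11 higher and 1 lower, and of -1.62 against macrophages, with 0 of 14 higher and 6 lower. Gapdh was at 241 CPM in endothelial cells, 255 CPM in fibroblasts and 597 CPM in macrophages.

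The genes of fibroblasts that were lowest in endothelial cells were Pdgfra, which the rule set to 0, Itgbl1, Olfml3, Sfrp2, Saa3, C1qtnf3, Cilp, Mfap4, Tenm3 and Serpinf1. Sfrp2, a secreted modulator of Wnt signaling, was at 5.47 against 652 CPM, Serpinf1, which encodes an antiangiogenic factor, at 10.3 against 772 CPM and the acute phase gene Saa3 at 4.25 against 522 CPM. Olfml3 had 0 UMIs in endothelial cells.

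The 167 cells fell into 4 subclusters by Leiden clustering at a resolution of 0.8. They held 56, 49, 37 and 25 cells with median depths of 6752, 8731, 6056 and 2724 UMIs. The number of clusters depended on the settings. A resolution of 0.5 gave 4 and 1.2 gave 6. At 0.8, requiring a Kdr or Flt1 UMI gave 3, and allowing at most 10% mitochondrial UMIs gave 5. The genes of the clusters took part in forming them, so levels are given as a description. Against fibroblasts the lists of vessel types were higher in 7 of 10 arterial genes (median 5.46), 9 of 12 capillary genes with 1 lower (median 5.90), 7 of 10 venous genes (median 5.12) and 5 of 7 tip genes (median 3.54). The 3 larger subclusters had Cdh5 in 55, 49 and 36 cells, and the fourth in 2.

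Subcluster 1 was arterial-like. All 12 arterial markers had their highest level in it, and the leading genes by ratio over the other cells were S100a4, Sema3g, Btnl9, Aqp7 and Gja5. Sema3g, a guidance factor of arteries, was at 384 CPM (95% interval 334 to 439) in subcluster 1 and 14.1 and 69.9 CPM in subclusters 2 and 3, and the arterial connexin gene Gja5 at 243, 24.1 and 53.9 CPM. Cxcl12 was at 1761 CPM (95% interval 1652 to 1874) against 235 and 324 CPM, and the Notch target Hey1 at 169.6, 10.1 and 21.97 CPM. Subcluster 1 also held the highest level of 7 of 12 capillary markers, among them Cd36 at 3191 CPM against 1312 and 727, and Btnl9 at 221 CPM against 0 and 49.9. Arterial and capillary genes were therefore not separated at this resolution.

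Subcluster 2 was venous-like, with all 10 venous markers highest in it and Selp, Tacr1, Tll1, Cmah and Pcdh7 leading. Selp, which encodes the selectin on which leukocytes roll, was at 569 CPM (95% interval 505 to 639.6) and at 3.57 and 13.98 CPM in subclusters 1 and 3. The chemokine-binding receptor gene Ackr1 was at 195 CPM against 0 and 3.99, Sele at 139 against 1.79 and 3.99, and Vcam1 at 197 against 14.3 and 43.9. Icam1 was likewise at 153 CPM against 16.1 and 29.96. These adhesion genes of activated venules thus had their endothelial UMIs mainly in 49 cells. Lrg1, at 875 CPM against 189 and 218, and the water channel gene Aqp1, at 1420.1 CPM against 275 and 169.8, went the same way.

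The genes that led subcluster 3 included Prnd, Mest, Fscn1 and Hmgb2, and it is left unnamed, since none of these is in the marker lists. Prnd, a gene related to the prion protein, was at 329.5 CPM (95% interval 281 to 384) against 41.1 and 2.01 CPM in subclusters 1 and 2, and the actin bundling gene Fscn1 at 409 CPM (95% interval 355 to 469) against 114 and 44.3 CPM. Of 12 tip cell markers, 4 were highest here, including Apln at 169.8 CPM against 3.57 and 38.2 and the VEGF family gene Pgf at 75.9 against 0 and 2.01, but 5 others were highest in subcluster 1. Dll4 was similar in subclusters 1 and 3, at 102 and 87.9 CPM, and Esm1 at 60.7 and 45.9 CPM, while subcluster 2 had 6.03 and 2.01. Basement membrane collagen was highest in subcluster 3, with Col4a1 at 3467 CPM against 2268 and 1316.

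**Figure D5:**
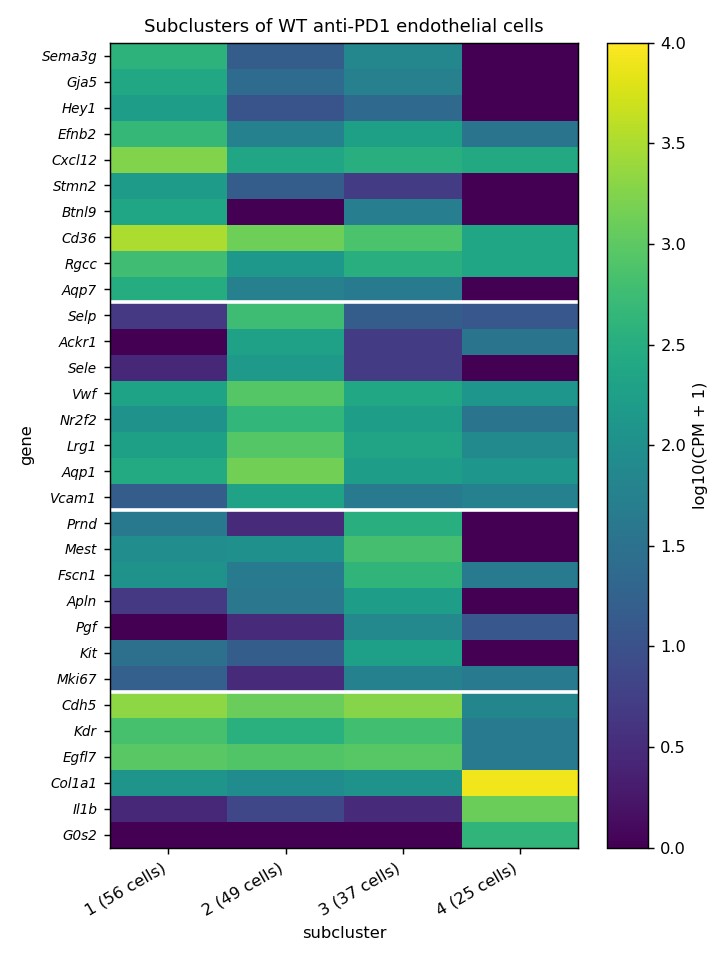
Level of selected genes in the 4 subclusters of WT anti-PD1 endothelial cells, as log10(CPM + 1) of summed UMIs; white lines separate arterial and capillary genes, venous genes, genes of subcluster 3, and endothelial against fibroblast and myeloid genes. The genes were selected, so the blocks of subclusters 1, 2 and 3 follow in part from that choice. Aqp1, shown with the venous genes, and Kit, shown with the genes of subcluster 3, are in the capillary list. Of the 12 tip cell markers only Apln and Pgf are shown, and 5 of the 12 were highest in subcluster 1. Subcluster 4 is low in Cdh5, Kdr and Egfl7 and high in Col1a1, Il1b and G0s2.

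Cell cycle genes were also uneven. Over all 167 cells 1 of 16 reached 50 CPM, and 11 of 16 had their highest level in subcluster 3. Mki67 was at 55.9 CPM there against 16.1 and 2.01, and Top2a at 99.9 against 28.6 and 10.1. Cells with at least 3 UMIs of the mitotic genes numbered 7 of 37 in subcluster 3, 2 of 56 in subcluster 1, 0 of 49 in subcluster 2 and 2 of 25 in subcluster 4.

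Subcluster 4 went against the label. Its 25 cells were led by Clec4d, Sdk1, G0s2, Il1b and Ptgs2, of which Clec4d, G0s2 and Il1b are myeloid genes. Col1a1 stood at 8132 CPM (95% interval 7547 to 8749.8) there against 118, 88.5 and 108 CPM in subclusters 1 to 3, Cdh5 at 68.1 CPM, Egfl7 at 45.4 CPM and Tie1 at 0. UMIs of Kdr or Flt1 were in 6 of 25 cells, and 2 of 25 were predicted doublets (droplets with the RNA of more than 1 cell), against 0 in the other subclusters. At least 3 UMIs of collagen genes were found in 13 of these cells, a share of 52% beside 44.6%, 38.8% and 56.8% in subclusters 1 to 3, whose cells were deeper, and these shares are not matched for depth. Myeloid genes reached 3 UMIs in 12 of 25 cells and in 0, 0 and 1 cells of the others. Pecam1, which leukocytes also express, stood at 1238 CPM in these cells. Whether these are mixtures or other cell types was not tested.

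Lymphatic genes were low. None of the 10 lymphatic genes reached 50 CPM in endothelial cells, so Pdpn and Sema3d, at 29.8 and 3.04 CPM, entered the comparison with fibroblasts only through the level there (276 and 107 CPM) and had to be lower. The list median of -3.95 rests on these 2 genes and was 3.61 with a filter at 10 CPM and 2.28 with none. Of the defining genes, 1 cell of subcluster 3 had all 6 of Prox1, Lyve1, Flt4, Mmrn1, Ccl21a and Reln. It held 9, 18, 6, 18, 20 and 4 UMIs of them among 4480. Most UMIs of Flt4 lay in other cells. No other cell had more than 1 of these 6 genes. Genes of high endothelial venules, the vessels by which lymphocytes enter lymph nodes, differed in level. Enpp2, the member that reached 50 CPM, was at 97.2 CPM (95% interval 82.7 to 113) against 15.1 CPM in fibroblasts and 0.692 CPM in macrophages, and Chst2 at 39.5 against 7.65 and 0 CPM. Glycam1 was found in 6 cells, 3 of subcluster 2 and 3 of subcluster 3, at 10.9 CPM over all, Madcam1 was at 0.608 CPM, and Chst4 had no UMI.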

How the data were processed

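Processed counts of 4 single-cell RNA-seq libraries were used, 1 per group, and the groups were taken from the sample titles. The deposited matrices hold UMI counts per gene and cell barcode, which the authors made with Cell Ranger (7.2.0 in the file headers, 5.0.1 in the submitters' processing notes) against mm10 with introns included; the correction for free RNA and the doublet removal that the study describes were not applied to the files used here. Of 32285 genes in the files, 32235 were matched to the GRCm38 annotation used for positions.

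Cells with more than 500 genes were kept (6840 in WT anti-PD1, 7292 in WT IgG, 8879 in A159V anti-PD1 and 8132 in A159V IgG, with medians of 4323, 4450, 3713 and 3662 UMIs). Endothelial cells and 5 comparison classes were gated on UMIs of marker genes. The fibroblast class had at least 2 UMIs of Pdgfra and 3 of Col1a1, Col1a2 and Dcn, the mural class at least 3 of Rgs5, Cspg4, Kcnj8 and Notch3, the macrophage class at least 3 of C1qa, the T class at least 2 of Cd3e, Cd3d and Cd3g, and the neutrophil class at least 2 of Csf3r and Cxcr2, each with 0 UMIs of markers of other classes; gate genes were left out of all gene counts. UMIs were summed per class and given as CPM with exact Poisson intervals, and ratios are log2 with a pseudocount of 1 CPM. Cells are not replicates, so no p-value is given. Doublets were predicted from 2 simulated doublets per cell at 0.8% per 1000 cells and kept, with their removal as an alternative. Subclusters were found with Leiden clustering on 500 variable genes, 10 principal components and 15 neighbours. Shares of cells with a UMI were taken after thinning to 1500 UMIs. The members, the lists and the rule for named genes (any list member, the 20 genes most above all other classes, the 10 lowest against fibroblasts, and 5 leading genes per subcluster) were chosen with earlier results of these data known, and the subcluster of 25 cells was singled out after its values were seen. The ratio step was tested on simulated counts. Versions were Python 3.11.15, numpy 2.4.6, scipy 1.17.1, pandas 2.3.3, scikit-learn 1.9.0, leidenalg 0.10.2 and igraph 0.11.9.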

Additional observations from a re-analysis of the deposited data

How the results depend on the processing

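No paired analysis was possible because each group holds 1 library. Requiring 2 UMIs of Pecam1 and Cdh5 gave shares of 0.137% in WT IgG, 2.89% in WT anti-PD1 and 0.214% in A159V anti-PD1, with 34 cells in the other 3 libraries in place of 12. Without the conditions on Rhox5 and C1qa the share was 2.62% in WT anti-PD1. It was 0.411% in WT IgG, 0.191% in A159V anti-PD1 and 0.184% in A159V IgG (62 cells in these 3). Without the condition on Ptprc as well, which admits leukocytes that express Pecam1, they were 6.86% in WT anti-PD1, 2.36% in WT IgG, 2.05% in A159V anti-PD1 and 1.48% in A159V IgG (474 cells), and clustering gave 10 clusters in place of 4. In WT anti-PD1 the share was 2.87% with more than 1000 genes, 2.08% with a Cdh5 UMI and 2.08% without the subcluster of 25 cells, both of the latter chosen after seeing the data. WT anti-PD1 held the highest share under all of these.

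A filter at 10 CPM gave 990 genes higher and 912 lower than in fibroblasts and no filter gave 1176 and 1180, in place of 611 and 512. Median of ratios scaling gave 509 and 621. Il1b was no longer higher with a Kdr or Flt1 UMI (log2 ratio -0.42), with Cdh5 (-0.41) and without the 25 cells (-0.62). Alcam was no longer higher with Cdh5 (-0.0209) and without the 25 cells (-0.0224). The intervals of these ratios all include 0, so neither gene became lower. Without the conditions on Rhox5, C1qa and Ptprc, Ccl2 was at 0.29 and Vegfa at 1.05. The median of the lymphatic list turned to 3.61 with the 10 CPM filter and 2.28 with none. Of 157 named genes that differed 4-fold, 4 changed sign and 30 came below 4-fold under at least 1 of 16 alternatives. The number of lists with a median above 0 was 21 to 23 in place of 22; the cell cycle list was at -0.11 under median of ratios scaling. All 17 identity genes stayed above T cells under every setting tried. With 167 cells from 1 library, the spread between tumors is unknown, and genes under 1.82 CPM are not detectable in the endothelial class.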
